A study of Mus musculus with 48 samples.

Results

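The cytochrome P450 genes of families 1 to 3 were read in the livers of 48 male mice. A gene was a member when its name on the array began with Cyp1, Cyp2 or Cyp3, followed by a subfamily letter and a number, and the Cyp2b genes were left out. This gave 56 genes, carried by 73 probes, of 37074 gene names on the array. Each gene was read by its brightest probe, and 52 of the 56 genes were tested among 33323 probes. The 4 others, Cyp2ab1, Cyp2c65, Cyp2j11 and Cyp3a44, were not well above background on enough arrays. The tested genes were 2 Cyp1a, 1 Cyp1b, 4 Cyp2a, 15 Cyp2c, 10 Cyp2d, 5 Cyp2j and 7 Cyp3a genes, and 1 each of Cyp2e, Cyp2f, Cyp2g, Cyp2r, Cyp2s, Cyp2t, Cyp2u and Cyp2w. Of them, 44 were well above background on all 48 arrays. Cyp1a1 was so on 13, Cyp2c66 on 15, Cyp2c39 on 16, Cyp2c53-ps on 25 and Cyp1b1 on 32. Cyp2c39 was tested only because of the Pparα-/- groups, Cyp1a1 because of Pparα-/- HFD mice and Cyp2c53-ps because of 3 groups of the deletions, so their calls against a group where they are dim carry that choice.

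The study asked what hepatocyte PPARα contributes to the liver's response to a fatty diet. WT mice were C57BL/6J animals bought from a breeder, whereas both mutant lines were bred at the institute. Pparα-/- mice lack the gene in all cells. In Pparα hep-/- mice an albumin-Cre transgene removes floxed exon 4 in hepatocytes, so the other liver cells keep it. All mice were housed at 30 °C and fed either a low-fat diet (CTRL) or a high-fat diet (HFD) in which 60% of the calories came from fat, with 8 mice per genotype and diet and 1 array per mouse. Per the sample labels, the diets lasted 12 weeks and the mice were 20 weeks old, whereas the study's text gives a shorter feeding time.

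P450 enzymes of these families sit in the endoplasmic reticulum of hepatocytes and use heme, oxygen and electrons from P450 reductase (Por) to oxidise drugs, pollutants, steroids and fatty acids. Their genes lie in tandem clusters that arose by duplication, so neighbours are often near copies. Nuclear receptors and the aryl hydrocarbon receptor (AHR) set their levels. CAR (Nr1i3) and PXR (Nr1i2) drive many Cyp2c and Cyp3a genes, HNF4α sustains many of them in hepatocytes, and AHR drives the Cyp1 genes. Several members also differ between male and female livers under growth hormone. PPARα, a receptor for fatty acids, is best known for driving the Cyp4a family, which is outside the set.

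The clusters were visible in the positions. On mm9, the build of the array files, 16 members lay on chromosome 19 (the Cyp2c genes), 10 on chromosome 15 (the Cyp2d genes), 10 on chromosome 7, 9 on chromosome 5 (mostly Cyp3a), 6 on chromosome 4 (the Cyp2j genes) and 5 elsewhere. The Cyp2d probes lay 3.01 to 3.43 Mb from a probe of Ppara itself on chromosome 15. RefSeq promoters on GRCm38.p6 were at hand for 46 of the 56 members, and the 250 bases before the start were searched on both strands for 3 short motifs. The letters CAAAGTCCA, an element bound by HNF4α, were in 9 of 46 member promoters (19.6%) against 126 of 32851 promoters (0.384%). The members with it were Cyp2c40, Cyp2c65, Cyp2c67, Cyp2c68, Cyp2c69, Cyp2c70, Cyp3a11, Cyp3a16 and Cyp3a41a, which belong to 2 clusters, and many of their promoters were alike. Those of Cyp2c68 and Cyp2c69 had 232 of 250 bases identical, whereas that of Cyp2c70 had 73 identical with Cyp2c40 and 148 with Cyp2c67. The windows of 60 bases around the match are shown because they belong to the Cyp2c genes that fell on the HFD in every genotype and to the Cyp3a genes that were lower in Pparα-/- mice. The match is in capitals, and each line runs 5′ to 3′ along the gene, with all 8 genes on the minus strand.
Cyp2c40, chr19:39812825-39812884: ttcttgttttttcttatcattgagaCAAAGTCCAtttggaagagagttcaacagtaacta
Cyp2c67, chr19:39649133-39649192: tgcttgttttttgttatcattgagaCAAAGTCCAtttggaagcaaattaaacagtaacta
Cyp2c68, chr19:39741144-39741203: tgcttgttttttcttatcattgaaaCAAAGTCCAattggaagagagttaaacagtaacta
Cyp2c69, chr19:39886810-39886869: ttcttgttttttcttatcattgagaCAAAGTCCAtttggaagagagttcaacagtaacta
Cyp2c70, chr19:40187316-40187375: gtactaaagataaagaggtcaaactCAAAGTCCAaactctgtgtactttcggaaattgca
Cyp3a11, chr5:145879929-145879988: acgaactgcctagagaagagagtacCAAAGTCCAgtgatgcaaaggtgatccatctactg
Cyp3a16, chr5:145469788-145469847: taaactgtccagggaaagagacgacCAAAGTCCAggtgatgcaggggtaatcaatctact
Cyp3a41a, chr5:145720197-145720256: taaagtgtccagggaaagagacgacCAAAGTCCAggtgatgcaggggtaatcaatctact

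A PPAR element (DR1, the letters AGGTCA repeated with any 1 base between) was in 0 of 46 member promoters and in 0.0335% of all promoters, which says only that these letters are not in the windows searched. The AHR core GCGTG was in 7 of 46 (15.2%) against 28.2% of all, and Cyp1a1 and Cyp1b1 were among the 7. A match is a description of letters and not of binding. The next pair is shown because Cyp2c37 and Cyp2c50, which encode epoxygenases and hydroxylases of fatty acids, are read together in the comparisons that follow. Their last 100 bases before the start aligned with 85 bases identical, and capitals mark where Cyp2c50 differs. Cyp2c54, read together with them, had no promoter entry.
Cyp2c37, chr19:39992324-39992423, plus strand: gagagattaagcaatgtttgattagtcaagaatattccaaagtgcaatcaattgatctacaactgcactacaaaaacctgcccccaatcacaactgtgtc
Cyp2c50, chr19:40089579-40089678, plus strand: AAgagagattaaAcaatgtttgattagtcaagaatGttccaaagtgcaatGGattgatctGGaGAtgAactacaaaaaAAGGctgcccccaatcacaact

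Near copies also matter for the probes. Among the members' brightest probes, those of Cyp2c67 and Cyp2c68 aligned with 55 of 59 bases identical, and those of Cyp3a25 and Cyp3a57 with 49 of 52, so within each pair a probe may read both genes. No other pair had more than 34 identical bases. The probes were compared only with each other and not with transcripts, so whether other probes also read near copies was not tested. Stretches of 30 bases from the first pair are shown with the differing bases in capitals.
Cyp2c67: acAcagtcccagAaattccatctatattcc
Cyp2c68: acCcagtcccagGaattccatctatattcc

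Before the comparisons, 7 arrays have to be named, because their mice stood apart and carried low weight in the fit (array weight under 0.6, on a scale that ran from 0.189 to 2.53). They were WT CTRL mice 6 and 8, WT HFD mice 1, 2 and 6, Pparα hep-/- CTRL mouse 1 and Pparα-/- CTRL mouse 3. WT CTRL mouse 6 had Cyp2c37 at 11.17 on the log2 scale, WT CTRL mouse 8 at 12.93 and Pparα hep-/- CTRL mouse 1 at 12.86, below all other mice. WT HFD mice 1 and 2 had Cyp3a11 at 8.40 and 6.51, and their summed neutrophil markers stood at 13.39 and 14.88 against a WT HFD median of 10.17. WT CTRL mouse 6 and Pparα hep-/- CTRL mouse 1 had the highest summed bile duct cell markers, at 10.91 and 11.03. These mice, at 16.02 and 16.42, and WT HFD mouse 6, at 16.39, also had the highest summed stellate cell and fibroblast markers. WT HFD mouse 2 had the highest summed macrophage markers, at 15.99. The part of these markers in the values was not tested. A second fit left the 7 arrays out. It was chosen after the values had been seen.

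Over all 48 arrays, spots well above background ran from 28234 to 38217 of 59305 per array. The median intensity ran from 56 to 91 against a background of 20 to 36, 0 spots were saturated, and the mice fell in 2 wash batches that held every group. Hepatocyte markers were high throughout, with a summed log2 signal between 20.61 and 20.81 in all 48 mice. Of 3 fat cell markers, Adipoq and Plin1 were not tested, being at or near background, and Lep was tested and called in no comparison. Of 3 pancreas markers, Pnlip and Prss2 were not tested, while Cela2a was well above background on all 48 arrays, at 6.55 to 10.08. Cela2a fell by 1.20 on the HFD in Pparα hep-/- mice, in which it was lower than in WT mice by log2 −0.61 on CTRL and −1.30 on the HFD, and it was higher by 1.25 in Pparα-/- than in Pparα hep-/- mice on the HFD. Its part in the values was not tested. The 2 Ppara probes were both lower in Pparα-/- than in WT mice on CTRL, by log2 −0.65 and −1.11, while in Pparα hep-/- mice on CTRL only one was called lower, by −0.42 against −0.10 for the other. Relative to WT mice on the HFD both were lower, by −0.85 and −0.68 with the hepatocyte deletion and by −1.08 and −1.29 with the whole-body deletion, and the groups did not overlap. Where these probes lie relative to the deleted exon was not determined here, so they check the labels only in part. A log2 difference of 1 is a doubling of signal. A difference was called when limma's adjusted p over all tested probes was at most 0.05. Since all values are from whole liver, fewer cells of a type and less RNA per cell cannot be told apart.

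**Figure D1:**
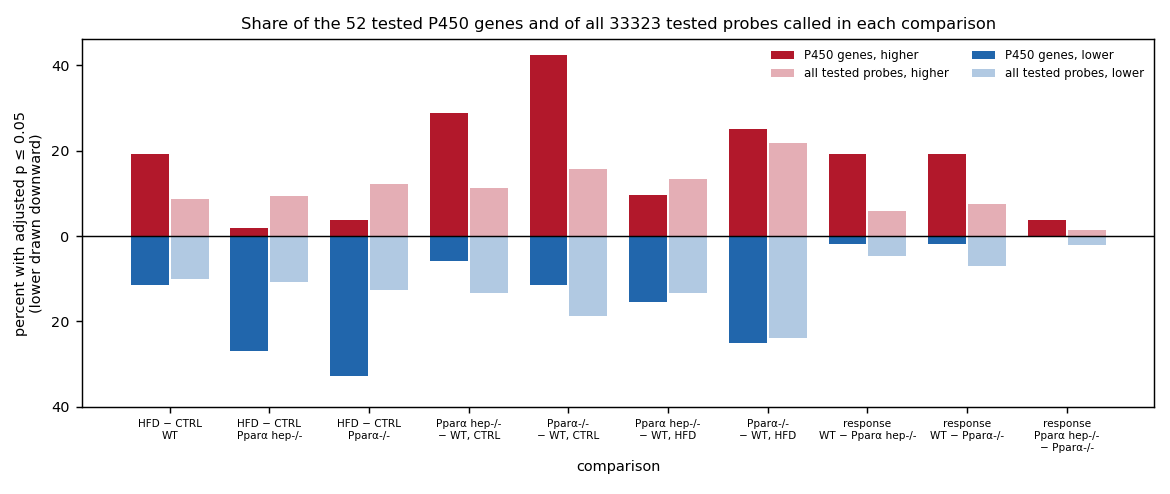
Percent of the 52 tested P450 genes (dark bars) and of all 33323 tested probes (pale bars) called higher (upward) or lower (downward). The comparisons drawn are the diet, each deletion against WT, and the differences between diet responses. In both deletion genotypes the P450 genes called on the HFD were mostly lower, 14 and 17 of 52, whereas on CTRL the deletions had mostly higher calls, 15 and 22 of 52 against WT.

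In WT mice the HFD moved P450 genes both ways. In all 10 genes rose and 6 fell, so 16 of 52 were called, against 18.7% of all tested probes, of which 8.6% were higher and 10.1% lower. With equal weights for all arrays 4 rose and 6 fell, and the same split came without the filter on dim probes. The 6 that fell were all Cyp2c genes, led by Cyp2c70, a bile acid hydroxylase of the mouse. The 3 largest rises were also in Cyp2c, and the other rises lay in Cyp2d, Cyp2e and Cyp2j. The members' median difference was 0.06 and that of all probes −0.01.

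Cyp2c37, Cyp2c50 and Cyp2c54 were the largest rises in WT mice. Cyp2c37 read 11.17, 15.17 and 15.48 (lowest, median and highest) in WT CTRL mice and 14.70, 15.71 and 16.16 in WT HFD mice. The medians were apart, but the groups overlapped through the low HFD mice. The fitted difference was 0.95 ± 0.28 (SE, n = 8 mice per group, limma adjusted p = 0.0118), with 8 of 8 HFD mice above the CTRL mean, and 0.73 (adjusted p = 0.00183) without the 7 arrays. Among the mice of full weight, the 6 CTRL mice lay between 15.15 and 15.48 and the 5 HFD mice between 15.66 and 16.16. Cyp2c50 rose by 0.87 ± 0.27 (adjusted p = 0.0192), and its second probe rose by 0.84. Cyp2c54 rose by 0.86 ± 0.28 (adjusted p = 0.0258). With equal weights for all arrays neither Cyp2c50 (adjusted p = 0.0553) nor Cyp2c54 (adjusted p = 0.0804) was called.

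The other 7 rises in WT mice were smaller. Cyp2j5, an arachidonic acid epoxygenase, read 13.35, 14.14 and 14.25 in CTRL and 14.10, 14.45 and 14.66 in HFD mice. All 8 HFD mice lay above the CTRL mean, and the groups overlapped over a narrow span. The difference was 0.36 ± 0.08 (adjusted p = 0.00068), and 0.59 at its second probe. Cyp2d37-ps, listed as a pseudogene of the Cyp2d cluster, rose by 0.41 ± 0.09 (adjusted p = 0.00115). Cyp2d12 and Cyp2j8 rose by 0.31 each and Cyp2j13 by 0.29. Of the brightest members, 2 rose by little, namely Cyp2e1, the enzyme of ethanol and acetone oxidation, by 0.17 and Cyp2d26 by 0.17. The second probe of Cyp2e1 rose by 0.47 (adjusted p = 0.00433), and that of Cyp2d26 read 0.24 and was not called. With equal weights Cyp2d12, Cyp2d26, Cyp2e1 and Cyp2j13 were not called either, which left Cyp2c37, Cyp2d37-ps, Cyp2j5 and Cyp2j8.

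On the HFD 6 Cyp2c genes fell in all 3 genotypes, and the 3 diet comparisons share no mice. They were Cyp2c40, Cyp2c44, Cyp2c67, Cyp2c68, Cyp2c69 and Cyp2c70. The promoters of 5 hold the HNF4 letters shown above, and Cyp2c44, an arachidonic acid epoxygenase, had no promoter entry. Cyp2c70 read 15.09, 16.67 and 17.04 in WT CTRL and 14.91, 15.26 and 16.77 in WT HFD mice. Most HFD mice were low, but 2 of 8 stayed above the CTRL mean. The log2 difference was −1.29 ± 0.25 in WT mice (adjusted p = 0.000272), −0.97 ± 0.21 in Pparα hep-/- (adjusted p = 0.00113) and −1.28 ± 0.22 in Pparα-/- mice (adjusted p = 6.23e-05). In Pparα-/- mice the highest HFD mouse, at 15.72, lay under the lowest CTRL mouse, at 15.81.

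The other genes of this group fell by similar amounts. Cyp2c67 fell by 0.76, 0.78 and 0.93 in WT, Pparα hep-/- and Pparα-/- mice, and Cyp2c69 by 0.76, 0.70 and 0.96. Cyp2c68, whose probe may also read Cyp2c67, fell by 0.73, 0.69 and 0.90. Cyp2c40, of the same near-identical group, fell by 0.54, 0.62 and 0.83. Cyp2c44 fell by 0.54, 0.55 and 0.58, and its second probe, at −0.47 in WT mice, was not called there (adjusted p = 0.0743). The test of a difference between genotypes called none of these 6 falls.

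**Figure D2:**
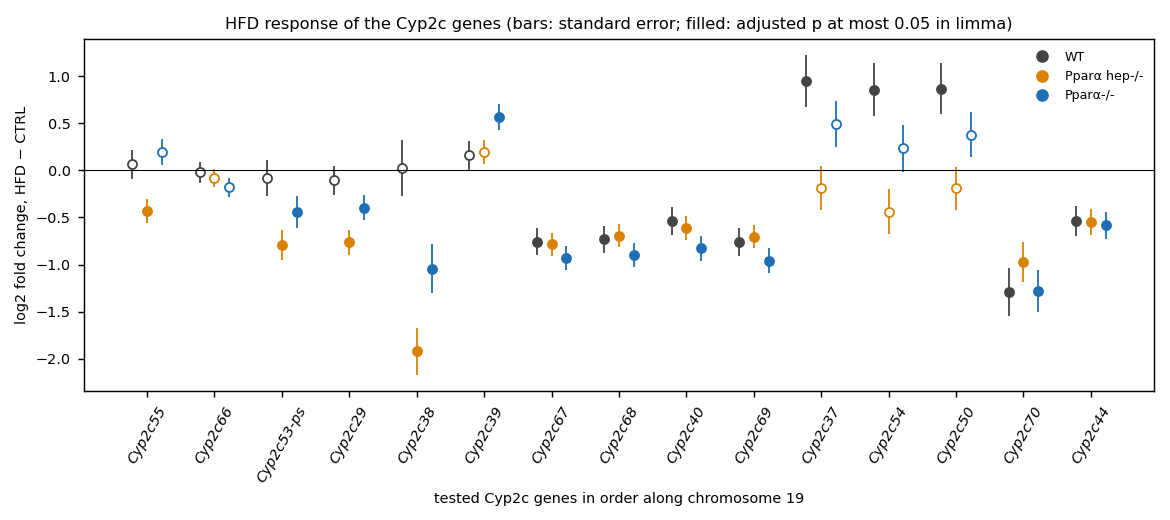
Log2 fold change of the 15 tested Cyp2c genes on the HFD against CTRL in each genotype, in their order along chromosome 19, with bars for the standard error and filled points for calls. Cyp2c40, Cyp2c44, Cyp2c67, Cyp2c68, Cyp2c69 and Cyp2c70 are below 0 and filled in all 3 genotypes, whereas Cyp2c37, Cyp2c50 and Cyp2c54 are filled above 0 in WT only and Cyp2c38 is filled below 0 in both deletions.

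In Pparα hep-/- mice the HFD almost only lowered P450 genes. Only 1 gene rose and 14 fell, so 15 of 52 were called, against 20.2% of all probes, of which 9.46% were higher and 10.8% lower. Of the 14, 10 were Cyp2c genes. The members' median difference was −0.16 and that of all probes −0.01. No gene had HFD and CTRL mice without overlap, as 0.591% of probes did. The 1 rise was Cyp2a12, a steroid and bile acid hydroxylase, by 0.21 ± 0.06 (adjusted p = 0.0134), which was lost with the processed signal scaled to its upper quartile (−0.004), with equal array weights and without the filter.

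The 2 largest falls were in Cyp2c38 and Cyp2g1. Cyp2c38, which encodes an arachidonic acid oxygenase, read 10.87, 14.30 and 14.70 in CTRL and 11.67, 12.52 and 13.16 in HFD mice of this genotype. All HFD mice lay below the CTRL mice except for the low CTRL mouse 1. It fell by 1.92 ± 0.25 on the log2 scale (adjusted p = 7.83e-07), by 0.75 and 1.98 within the 2 wash batches. Cyp2g1, known as a P450 of the olfactory epithelium, read 6.07, 8.88 and 9.09 in CTRL and 6.45, 7.25 and 8.09 in HFD mice. CTRL mouse 1 lay below all HFD mice for both genes. Cyp2g1 fell by 1.65 ± 0.23 on the log2 scale (adjusted p = 1.96e-06).

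Smaller falls completed the list. Cyp2c29, a major Cyp2c enzyme of mouse liver that CAR activators induce, fell by 0.77. Cyp2c53-ps read 5.01, 6.24 and 6.89 in CTRL and 5.15, 5.52 and 6.80 in HFD mice and was called lower, but only 7 and 3 of 8 arrays had it well above background. Cyp2r1, a 25-hydroxylase of vitamin D, fell by 0.47. Cyp2c55 fell by 0.43, and its second probe by 0.97. That probe also fell by 0.50 in WT and 0.46 in Pparα-/- mice, where the brightest was not called. Cyp2c50 fell by 0.75 at its second probe (adjusted p = 0.00565), whereas its brightest, at −0.19, was not called. Cyp2u1, a long-chain fatty acid hydroxylase, fell by 0.38, and Cyp2d13 by 0.35. Cyp2d13 had opposite signs in the 2 wash batches, at 0.25 and −0.33, and its second probe, at −0.25, was not called. Without array weights 7 of the 15 calls remained, and all 15 remained without the 7 arrays.

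In Pparα-/- mice the HFD also lowered most of the P450 genes it moved. Only 2 genes rose and 17 fell, so 19 of 52 were called, against 24.8% of all probes, of which 12.2% were higher and 12.6% lower. With equal array weights 1 rose and 9 fell. The members' median difference was −0.22 and that of all probes −0.02. For 9 genes the HFD and CTRL mice did not overlap, against 1.44% of all probes. They were Cyp2c38, Cyp2c67, Cyp2c68, Cyp2c69, Cyp2c70, Cyp2f2, Cyp2r1 and Cyp2u1, all lower, and Cyp2c37, higher but not called.

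Cyp2c38 read 13.84, 14.34 and 14.74 in Pparα-/- CTRL and 13.06, 13.39 and 13.78 in HFD mice, with no overlap, and fell by 1.04 ± 0.26 (adjusted p = 0.00313). Cyp2g1 fell by 1.00 ± 0.24 (adjusted p = 0.00205). Cyp2f2, which activates naphthalene in lung and liver and marks periportal hepatocytes, read 17.11, 17.26 and 17.47 in CTRL and 16.22, 16.71 and 16.99 in HFD mice. All its HFD mice lay below all CTRL mice, and it fell by 0.60 ± 0.09 (adjusted p = 3.87e-06). Cyp2u1 fell by 0.66, and both of its other probes fell, by 0.75 and 0.77. Its brightest probe holds a run of GT repeats.

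Among the Cyp2d genes 3 fell in Pparα-/- mice and were not called in the other genotypes. Cyp2d9, a testosterone hydroxylase higher in male livers, read 14.92, 15.52 and 15.76 in CTRL and 14.30, 14.94 and 15.41 in HFD mice. The HFD mice were lower as a group, with overlap. The difference was −0.67 ± 0.16 (adjusted p = 0.00214), against 0.33 in WT and −0.04 in Pparα hep-/- mice. Cyp2d34 fell by 0.74 ± 0.18 and Cyp2d22 by 0.33 ± 0.09. Cyp2d37-ps, which rose in WT mice, fell by 0.29 ± 0.08. The 2 rises were Cyp2c39, a retinoic acid hydroxylase, by 0.56 ± 0.14 (adjusted p = 0.00221), and Cyp1b1, an AHR-driven enzyme of cells outside the hepatocyte, by 0.56 ± 0.18 (adjusted p = 0.0152), with 4 of 8 CTRL and 7 of 8 HFD arrays well above background. The second probe of Cyp2j5 fell by 0.49 (adjusted p = 0.00061), whereas its brightest, at −0.16, was not called.

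Cyp2c37 was the exception among the non-overlapping genes. It read 15.58, 15.71 and 16.00 in Pparα-/- CTRL and 16.02, 16.30 and 16.38 in HFD mice. Every HFD mouse lay above every CTRL mouse, yet the difference of 0.49 ± 0.24 was not called (adjusted p = 0.14) with the spread taken over all 48 arrays. Without the 7 arrays it was 0.48 (adjusted p = 0.0135). Its responses in WT and Pparα-/- mice differed by 0.46 ± 0.37, which was not called (adjusted p = 0.428).

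Markers of other cell types moved with the HFD in the deletion genotypes. Of 5 stellate cell and fibroblast markers 4 rose in Pparα hep-/- and 5 in Pparα-/- mice, and their summed signal went from a range of 13.84 to 15.76 to one of 15.27 to 15.90 in the latter. Of 6 macrophage markers 2 and 5 rose, with sums from 14.10 to 15.07 on CTRL and from 14.85 to 15.89 on the HFD in Pparα-/- mice. Of 4 neutrophil markers 1 and 3 rose, and of 4 endothelial markers 2 and 2. In WT mice 0 of these 19 markers were called by limma. Of 6 hepatocyte markers 0 were called in Pparα hep-/- mice, and 1 rose and 1 fell in Pparα-/- mice. The part of other cells in the P450 falls was not tested.

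**Figure D3:**
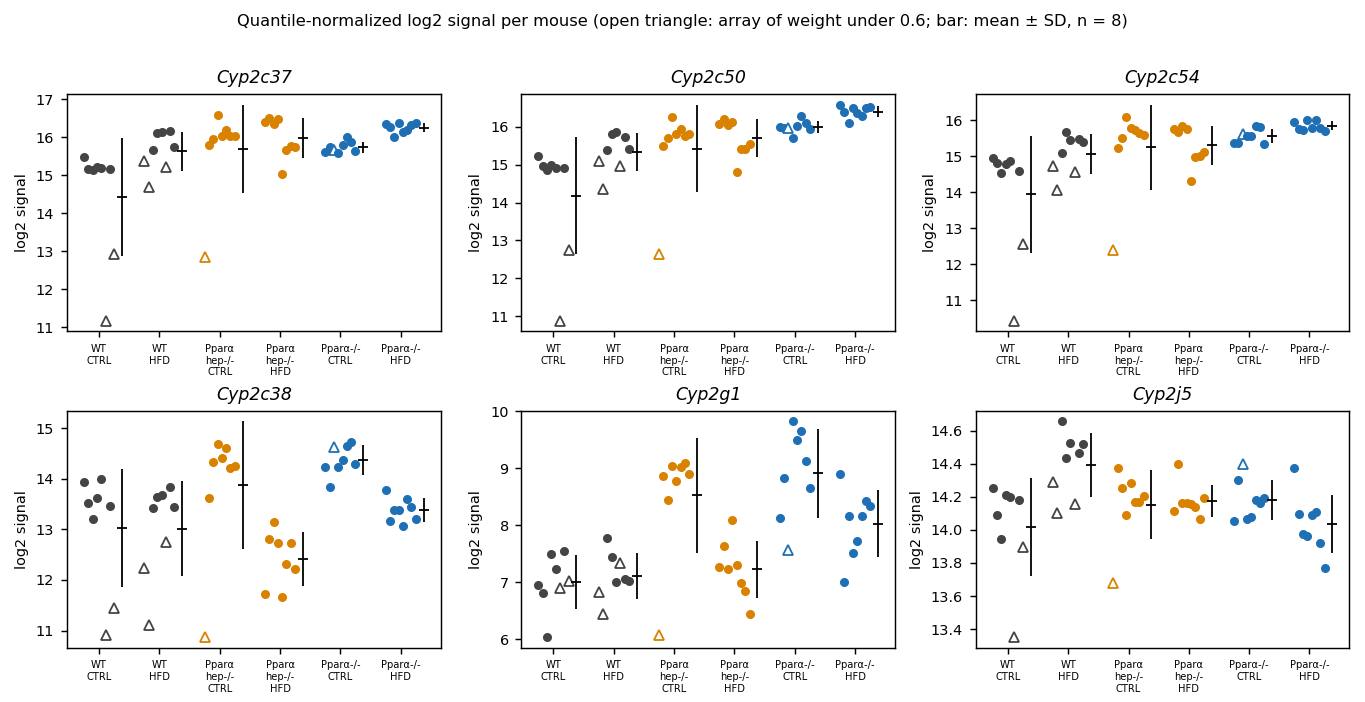
Log2 signal of 6 genes in each of the 48 mice, by genotype and diet, with bars for the mean ± SD (n = 8) and open triangles for the 7 arrays of low weight. Cyp2c37, Cyp2c50 and Cyp2c54 are lowest in WT CTRL mice, and Cyp2c38 and Cyp2g1 are high in the CTRL mice of both deletions and lower on the HFD.

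The diet responses of 2 genotypes were then tested against each other. The response in WT mice differed from that in Pparα hep-/- mice for 11 genes, against 10.4% of all probes (5.79% more positive in WT mice and 4.62% more negative), and was the more positive in 10 of them. It differed from that in Pparα-/- mice also for 11 genes, against 14.3% (7.42% and 6.93%), and was again the more positive in 10. These 2 comparisons share the WT mice. The responses of the 2 deletions, which share no mice, differed for 2 genes against 3.42% (1.3% more positive in Pparα hep-/- mice and 2.12% more negative), both more negative in Pparα-/- mice.

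For Cyp2c38 the response in WT mice was 0.02, so it exceeded that in Pparα hep-/- mice by 1.95 ± 0.39 (adjusted p = 0.00129). Cyp2g1 exceeded it by 1.79 ± 0.36 (adjusted p = 0.0012) and exceeded that in Pparα-/- mice by 1.13 ± 0.36 (adjusted p = 0.0292). Cyp2c54, Cyp2c37 and Cyp2c50 exceeded Pparα hep-/- mice by 1.29, 1.13 and 1.05, while against Pparα-/- mice the differences of 0.62, 0.46 and 0.49 were not called. The second probe of Cyp2c50 was called there, at 1.02 (adjusted p = 0.0224). Cyp2c29 exceeded Pparα hep-/- mice by 0.66.

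A Cyp2d and Cyp2j group differed between WT and Pparα-/- mice. Cyp2d34 exceeded by 1.05 ± 0.27 (adjusted p = 0.00715) and Cyp2d9 by 1.00 ± 0.24 (adjusted p = 0.00451). Cyp2d37-ps, Cyp2j5, Cyp2j8 and Cyp2j13 exceeded in both tests, by 0.46, 0.39, 0.37 and 0.48 against Pparα hep-/- and by 0.70, 0.52, 0.44 and 0.44 against Pparα-/- mice. The second probe of Cyp2j5 gave 0.69 and 1.07, both called. The negative differences were Cyp2j9 against Pparα hep-/- mice, at −0.70, and Cyp1b1 against Pparα-/- mice, at −0.78. Cyp2j9, a P450 of arachidonic acid known from brain, had a second probe at −0.29 that was not called. Between the deletions the genes were Cyp2f2, at 0.44, and Cyp2a12, at 0.35. Equal array weights left 0, 3 and 0 calls in the 3 tests, while 17, 13 and 7 were called without the 7 arrays, the last split 3 and 4. At an unadjusted p under 0.05 limma had 23, 18 and 11 genes.

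On CTRL, deletion of Pparα in hepatocytes went with higher P450 signal. Relative to WT mice 15 genes were up and 3 down in the Pparα hep-/- livers, so 18 of 52 were called, against 24.7% of all probes, of which 11.3% were higher and 13.4% lower. The higher genes were mostly Cyp2c and Cyp2a. All 4 Cyp2a genes were higher. The median difference was 0.12, against −0.01 over all probes, and no gene had groups without overlap (1.31% of probes). Of markers of other cells, 3 of 4 endothelial, 2 of 6 macrophage, 1 of 5 stellate and 1 of 4 neutrophil markers were higher too, and 1 of 6 hepatocyte markers was lower. Their part in the P450 values was not tested.

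Cyp2g1 differed most, with 6.04, 6.99 and 7.55 in WT CTRL mice against 6.07, 8.88 and 9.09 in Pparα hep-/- CTRL mice. All mice of the deletion but mouse 1 lay above all WT mice. The difference was 1.78 ± 0.26 (adjusted p = 1.89e-06). Cyp2c54, Cyp2c37 and Cyp2c50, which rose on the HFD in WT mice, were higher by 1.20, 1.17 and 1.14, with adjusted p of 0.000867, 0.000956 and 0.00107. Without the 7 arrays the 3 differences were 0.94, 0.91 and 0.88, and all were called. Cyp2a4, a testosterone 15α-hydroxylase higher in female livers, read 15.19, 16.08 and 17.94 in WT and 16.52, 16.93 and 17.43 in Pparα hep-/- mice. Its high value in WT was that of mouse 6, and the difference was 0.94 ± 0.21 (adjusted p = 0.000933). Cyp2a5, a coumarin hydroxylase, was higher by 0.73. The promoters of Cyp2a4 and Cyp2a5 had 245 of 250 bases identical.

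Cyp2c70, Cyp2j9 and Cyp2c44 were the 3 lower genes, by log2 −0.77, −0.60 and −0.48. Cyp2c70 read 14.92, 15.72 and 16.41 in Pparα hep-/- CTRL mice, mostly below the WT CTRL mice. Cyp2c55 was higher by 0.90 ± 0.15 (adjusted p = 1.31e-05), and by 0.99 at its second probe. Without array weights 11 of the 18 calls remained, and Cyp2c70, Cyp2c44 and Cyp2c38 were among those lost.

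Whole-body deletion also went mostly with higher P450 signal on CTRL. In Pparα-/- mice 22 genes were higher and 6 lower than in WT mice, so 28 of 52 were called, against 34.2% of all probes, of which 15.6% were higher and 18.7% lower. The median difference was 0.27, against −0.02 over all probes. For 8 genes the groups did not overlap, against 6.15% of probes, and all 8 were higher: Cyp2a12, Cyp2c37, Cyp2c39, Cyp2c50, Cyp2c53-ps, Cyp2c54, Cyp2d37-ps and Cyp2g1. Of these, Cyp2c39 and Cyp2c53-ps passed the filter only through the deletions. This comparison and the former share the WT mice, so their values stand side by side only. Endothelial markers were higher in 2 of 4, with sums of 12.75 to 13.21 against 11.86 to 12.27 in WT mice and no overlap, 1 of 6 macrophage markers was higher, and 1 of 6 hepatocyte and 1 of 4 bile duct cell markers were lower. Their part was not tested.

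Cyp2c39 passed the filter through the Pparα-/- mice alone, so its values are a description. It read 4.74 to 5.40 in WT CTRL, 4.80 to 5.72 in WT HFD, 4.81 to 5.40 in Pparα hep-/- CTRL and 4.96 to 5.40 in Pparα hep-/- HFD mice, and was not well above background on any of these 32 arrays. In Pparα-/- mice it read 7.27 to 8.50 on CTRL and 7.79 to 8.94 on the HFD, well above background on all 16 arrays. Since the lower side is only a bound, Cyp2c39 was at least 4.89-fold higher on CTRL in Pparα-/- livers than in WT livers and at least 7.75-fold higher on the HFD. Against Pparα hep-/- mice it was at least 5.38-fold and at least 8.22-fold higher. The bound sets the mean of the bright mice against the dimmest signal still well above background on each dim array, or the probe's own signal where that was higher. The probe lies at chr19:39642921-39642980 on mm9.

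Other genes higher in Pparα-/- mice on CTRL lay mostly in Cyp2a, Cyp2c and Cyp2d. Cyp2g1 read 7.56, 8.97 and 9.82 and was higher by 2.06 ± 0.27 (adjusted p = 5.32e-08), above all WT mice. Cyp2a4 was higher by 1.54 ± 0.22 (adjusted p = 3.13e-07), Cyp2c50 by 1.38, Cyp2c54 by 1.17 and Cyp2c38 by 1.05. The second probe of Cyp2c50 read 0.46 there and was not called. Cyp2d37-ps was higher by 0.87 and Cyp2a12 by 0.66. Cyp1a2, the main AHR-driven P450 of hepatocytes, was higher by 0.76 ± 0.26 (adjusted p = 0.0198), whereas Cyp1a1 was near background.

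The genes lower in Pparα-/- mice on CTRL were led by 3 Cyp3a genes. Cyp3a11, the main PXR-driven Cyp3a enzyme of mouse liver, read 11.97, 12.86 and 14.53 in WT and 9.06, 10.92 and 12.60 in Pparα-/- mice. Only the highest Pparα-/- mouse reached into the WT range. The difference was −1.86 ± 0.49 (adjusted p = 0.00252). Cyp3a16 and Cyp3a41a, whose promoters had 231 of 250 bases identical and which are higher in female or young livers, differed by −1.79 and −1.72. Cyp2j9 was lower by 0.84 ± 0.16, which is a log2 difference of −0.84 (adjusted p = 4.15e-05). Cyp3a59 and Cyp2r1 differed by −0.44 and −0.25. Within the 2 wash batches 27 of the 28 calls had 1 sign, the exception being Cyp3a13, at 0.68 and −0.01.

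On CTRL the 2 deletions differed, beside Cyp2c39, most in 3 Cyp3a genes and in Cyp2c55. In all 13 genes were higher and 5 lower in Pparα-/- than in Pparα hep-/- mice, against 25.2% of all probes (12.2% higher and 13% lower), and 6 had no overlap, against 4.43%. The 13 include Cyp2c39 and Cyp1a1, both tested only because of Pparα-/- groups, and Cyp1a1 was well above background on 2 and 0 of 8 arrays here. Of the markers 1 of 4 endothelial genes was higher and 1 of 5 stellate and 1 of 6 hepatocyte genes were lower, with endothelial sums of 12.75 to 13.21 against 12.18 to 12.63, and their part was not tested. Cyp3a11 differed by −2.13 ± 0.44 (adjusted p = 0.000212), Cyp3a16 by −2.01 and Cyp3a41a by −1.84, while between Pparα hep-/- and WT mice Cyp3a11 differed by 0.27 and was not called. Cyp2c55 read 6.04, 6.30 and 6.96 in Pparα-/- and 7.10, 7.28 and 8.05 in Pparα hep-/- CTRL mice. The groups did not overlap, and the difference was −1.03 ± 0.14 (adjusted p = 1.07e-07), and −1.73 at the second probe. The second probe of Cyp2c50 was lower here by −0.997 (adjusted p = 0.000317), where its brightest, at 0.24, was not called. Cyp2c67 and Cyp2c69 were higher in Pparα-/- mice by 0.82 and 0.77.

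**Figure D4:**
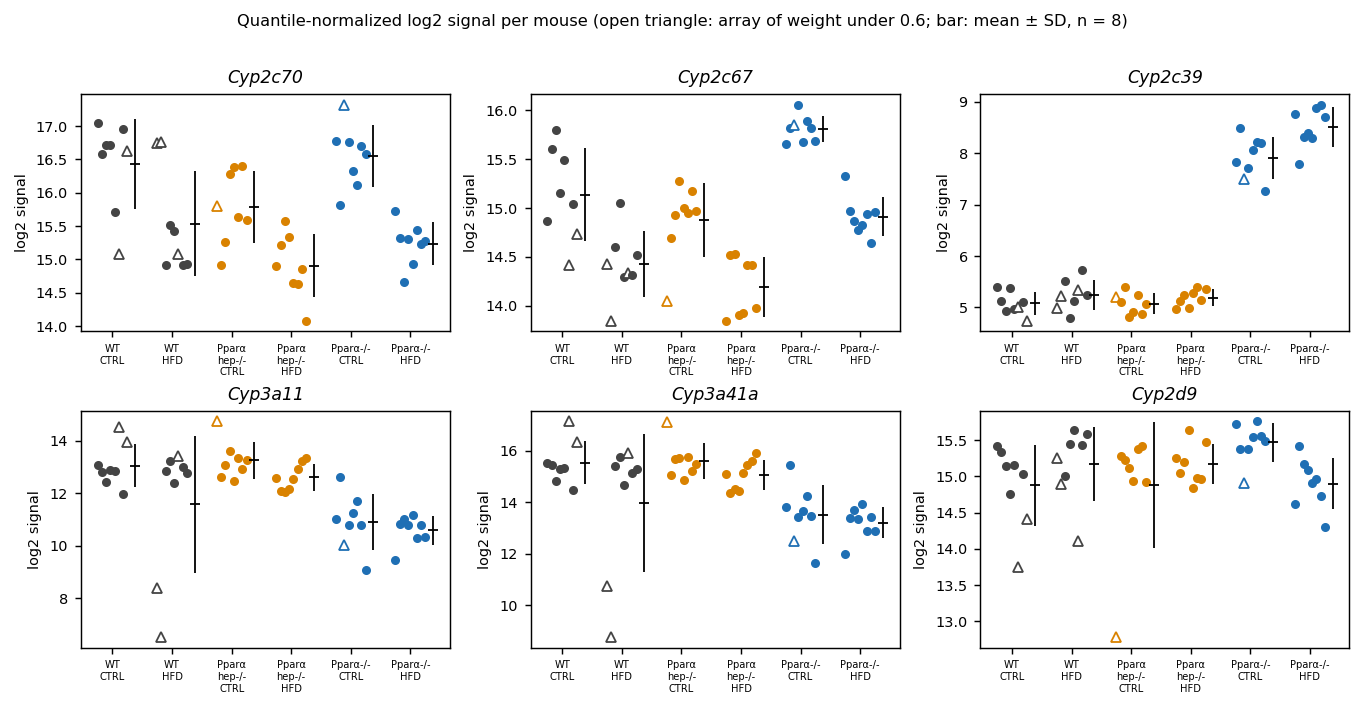
Log2 signal of 6 genes in each of the 48 mice, by genotype and diet, with bars for the mean ± SD (n = 8) and open triangles for the 7 arrays of low weight. Cyp2c39 stands at 7.27 to 8.94 in all Pparα-/- mice and at no more than 5.72 elsewhere, Cyp3a11 and Cyp3a41a are low in Pparα-/- mice and in WT HFD mice 1 and 2, and Cyp2c70 and Cyp2c67 are lower on the HFD.

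On the HFD the called genes of the hepatocyte deletion lay on both sides of WT. In Pparα hep-/- mice 5 genes exceeded WT mice and 8 lay below them, so 13 of 52 were called, against 26.7% of all probes, of which 13.3% were higher and 13.4% lower. The 4 Cyp2a genes were again higher, and so was Cyp2c55. Cyp2c37, Cyp2c50 and Cyp2c54 differed by 0.04, 0.08 and −0.09 and were not called. The groups of all 52 genes overlapped, against 1.44% of probes without overlap.

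Cyp2a4, Cyp2a5, Cyp2a22 and Cyp2a12 were higher by 0.64, 0.58, 0.53 and 0.40. Cyp2c38, higher on CTRL in this genotype, was lower on the HFD by −1.03 ± 0.26 on the log2 scale (adjusted p = 0.00271). WT HFD mice read 11.10, 13.43 and 13.84 for it, and all Pparα hep-/- mice, at 11.67 to 13.16, lay below the WT median. Cyp2d13 differed by −0.63, Cyp2c44 by −0.49, Cyp2d40 by −0.42 and Cyp2j5 by −0.30, with −0.66 at the second probe of Cyp2j5. With equal array weights only the 4 Cyp2a genes were called, without the filter 5 were higher and 4 lower, and with the processed signal scaled to its upper quartile the split was 5 higher and 17 lower. In this comparison 5 of 5 stellate, 4 of 6 macrophage, 4 of 4 endothelial, 1 of 4 neutrophil and 1 of 4 bile duct cell markers were higher and 1 of 6 hepatocyte markers was lower, and their part in the lower P450 values was not tested.

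In Pparα-/- mice on the HFD 13 genes were higher and 13 lower than in WT mice, so 26 of 52 were called, against 45.7% of all probes, of which 21.8% were higher and 24% lower. For 4 genes the groups did not overlap, against 6.93%, namely Cyp1a2, Cyp2c39 and Cyp2c50, and Cyp2c54, which was not called. Of these, Cyp2c39 was tested only because of Pparα-/- groups. So was Cyp1a1, which is among the 13 higher and was well above background on 6 Pparα-/- and 1 WT HFD arrays. Under the upper-quartile scaling 11 were higher and 17 lower, and with equal array weights 10 were higher and 4 lower. Beside Cyp2c39, Cyp2a4 was higher by 1.30 ± 0.19 (adjusted p = 3.06e-07). Cyp1a2 read 9.71, 11.63 and 12.16 in WT and 12.22, 12.58 and 12.76 in Pparα-/- mice, so every Pparα-/- mouse lay above every WT mouse, and the difference was 0.95 ± 0.22 (adjusted p = 0.000506). Cyp2c50 was higher by 0.89 at its brightest probe and lower by −0.57 (adjusted p = 0.0205) at its second, so its direction here depends on the probe.

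Among the lower genes were again the Cyp3a trio. Cyp3a11 read 6.51, 12.82 and 13.44 in WT HFD and 9.46, 10.79 and 11.17 in Pparα-/- HFD mice. Of the WT mice 6 lay above every Pparα-/- mouse, and mice 1 and 2 lay below all of them. The difference was −1.69 ± 0.42 (adjusted p = 0.000996), and −2.21 (adjusted p = 1.91e-08) without the 7 arrays. With equal weights it was −0.997 and not called (adjusted p = 0.226), and neither Cyp3a16 nor Cyp3a41a was called. Cyp3a16 differed by −1.77 and Cyp3a41a by −1.45. Cyp2j9 differed by −0.71, Cyp3a59 by −0.58, Cyp2d34 by −0.57, Cyp2r1 by −0.51, Cyp2d9 by −0.49, Cyp2j5 by −0.46 (−0.81 at its second probe) and Cyp2f2 by −0.37. Cyp2d9, Cyp2d34 and Cyp2d12 had opposite signs in the 2 wash batches, with Cyp2d9 at 0.19 and −0.73. Stellate, macrophage, endothelial and neutrophil markers were higher in 5 of 5, 5 of 6, 4 of 4 and 3 of 4, 1 of 6 hepatocyte markers was lower, and their part was not tested.

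Against Pparα hep-/- mice on the HFD, Pparα-/- mice had 17 genes higher and 10 lower, against 30.6% of all probes (15.2% higher and 15.4% lower), and 7 without overlap, against 6.55%. The 17 and the 7 both include Cyp2c39, tested only because of Pparα-/- groups. With equal array weights 4 were higher and 5 lower. Markers were higher for 2 of 4 endothelial, 1 of 6 macrophage and 1 of 4 neutrophil genes and lower for 2 of 4 bile duct genes, with endothelial sums of 13.30 to 13.63 against 12.47 to 13.08, and their part was not tested. Cyp3a11 differed by −2.05 ± 0.40 (adjusted p = 6.36e-05), with all Pparα-/- mice, at 9.46 to 11.17, below all Pparα hep-/- mice, at 12.05 to 13.33. Cyp3a16 by −2.04, Cyp3a41a by −1.90 and Cyp2j9 by −0.81 did not overlap either. Cyp2c38 was higher by 1.02, Cyp2g1 by 0.93 and Cyp2c67 by 0.67. Cyp2c55 was lower by −0.40, and by −1.21 at its second probe. The brightest probe of Cyp2c50 was higher by 0.81, whereas its second, at −0.42, was not called.

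**Figure D5:**
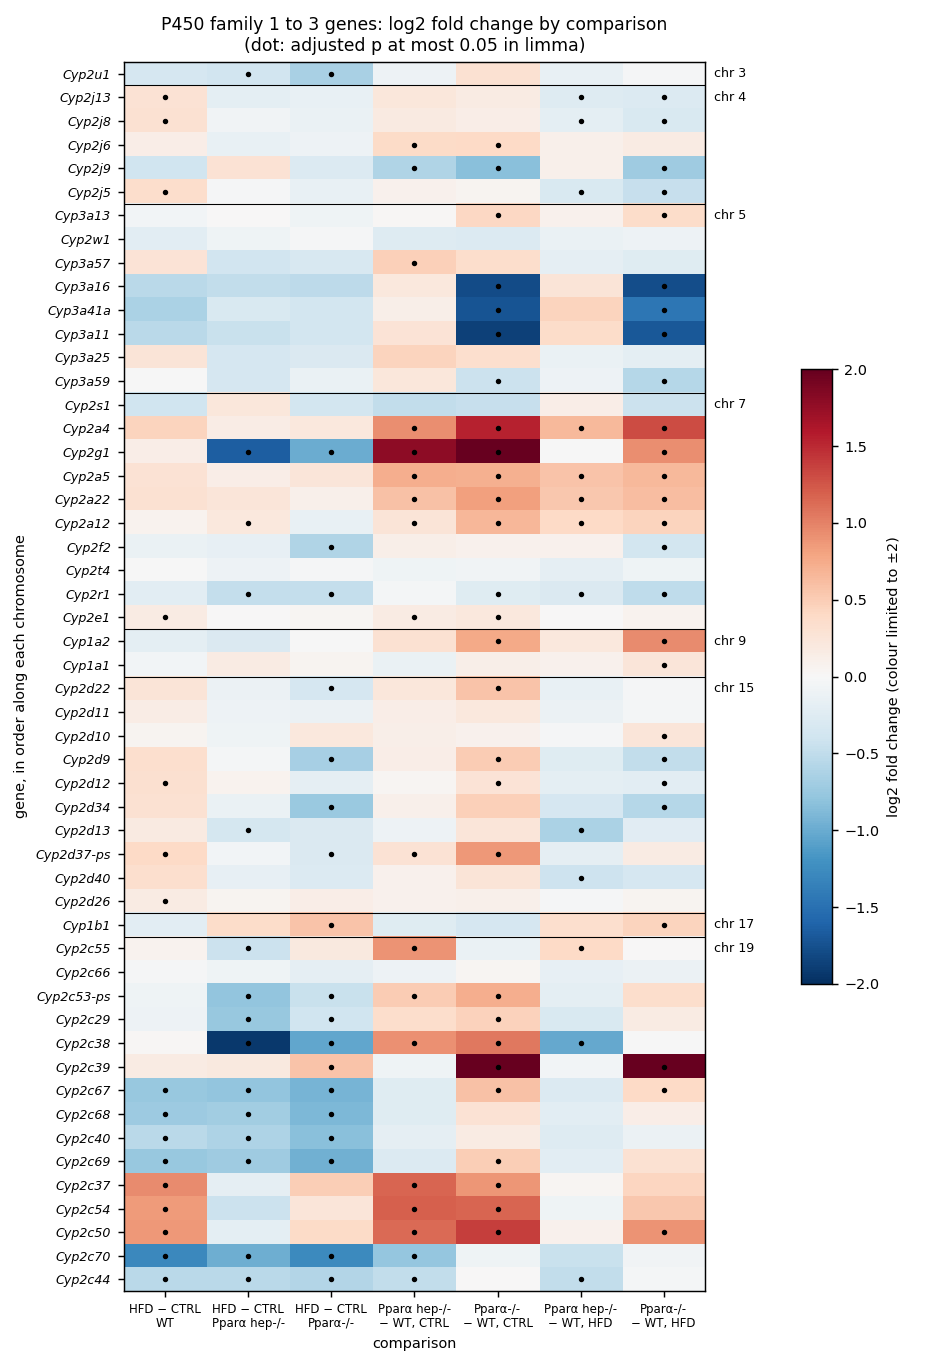
Log2 fold change of the 52 tested P450 genes (rows, in order along each chromosome), with the colour limited to ±2 and a dot for each call. The columns are the diet comparisons and those of each deletion against WT mice. The Cyp2c genes that fell on the HFD form runs of negative values in the 3 diet columns. Cyp3a11, Cyp3a16 and Cyp3a41a are negative in the columns that set Pparα-/- mice against WT mice.

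Some members moved little. Cyp2c66, Cyp2d11, Cyp2t4, Cyp2w1 and Cyp3a25 were called in none of the 9 comparisons of groups. Cyp2d11, a bright gene with a mean log2 signal of 17.61, had group medians between 17.56 and 17.78. Cyp2e1, at a mean of 18.48, had medians between 18.38 and 18.59, but its second probe was called in 6 of the 9 comparisons, by 0.32 to 0.47. Over the 12 comparisons, differences between diet responses included, calls could be set beside further tested probes of the same gene in 45 pairs of call and probe, with Cyp2u1, which has 2 such probes, entering each call in 2 pairs. The further probe was called the same way in 31 of the pairs and the opposite way in 1, in Cyp2c50. Cyp2d10, at 17.33, was called above WT on the HFD in Pparα-/- mice, by 0.24, which turned to −0.07 under the upper-quartile scaling.

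Genes that supply or regulate the P450s were read from lists outside the families. Of 6 genes of electron supply, 2 rose on the HFD in WT mice, 1 rose and 3 fell in Pparα hep-/- mice and 1 rose in Pparα-/- mice. For these and the following diet counts, 8.6%, 9.46% and 12.2% of all probes rose and 10.1%, 10.8% and 12.6% fell in the 3 genotypes. Cyb5a, cytochrome b5, rose in all 3, by 0.33, 0.20 and 0.26. Of 12 genes of heme synthesis and breakdown 5, 2 and 3 rose and 0, 1 and 0 fell. Cpox, the coproporphyrinogen oxidase, rose by 0.71 in WT mice, and Alad, the second enzyme of the pathway, by 0.35, 0.30 and 0.22. On CTRL, Alad in Pparα-/- mice exceeded WT mice by 1.41 ± 0.08 (adjusted p = 3.69e-18). In that comparison 5 of the 12 heme genes were higher and 1 lower. Of the 6 genes of electron supply 2 were higher and 3 lower, against 15.6% of all probes higher and 18.7% lower.

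Of 20 tested regulators 3 rose and 3 fell on the HFD in WT mice, 2 rose and 1 fell in Pparα hep-/- mice and 0 were called in Pparα-/- mice by limma. Nr1i3, which encodes CAR, rose by 1.04 ± 0.17 in WT mice (adjusted p = 1.85e-05), and on CTRL it was higher in Pparα hep-/- mice by 1.11 ± 0.16 and in Pparα-/- mice by 1.57 ± 0.17 than in WT mice. Hnf4a was lower in the deletions on CTRL by log2 −0.36 and −0.43, and Foxa1, a pioneer factor of liver genes, by −1.10 and −1.19. Onecut1 fell by 1.65 on the HFD in WT mice. Ahr was higher in the deletions on CTRL by 0.45 and 0.70. Of 5 tested AHR-responsive genes outside the P450s 2, 2 and 1 rose and 0, 1 and 0 fell on the HFD, and Nqo1 rose by 0.76, 0.78 and 0.73, which equal array weights did not call. Between genotypes 1 of the 5 was higher and 2 lower in Pparα-/- than in WT mice on CTRL, and 0 and 2 on the HFD, while in Pparα hep-/- against WT mice 1 was higher and 1 lower on CTRL and 1 and 0 on the HFD. In Pparα-/- against Pparα hep-/- mice 0 were higher and 2 lower on either diet. Of all probes, 15.6% were higher and 18.7% lower in Pparα-/- than in WT mice on CTRL, and 21.8% and 24% on the HFD. For Pparα hep-/- against WT mice these shares were 11.3% and 13.4% on CTRL and 13.3% and 13.4% on the HFD. Between the deletions they were 12.2% and 13% on CTRL and 15.2% and 15.4% on the HFD.

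Of 9 genes of growth hormone signalling 2 fell on the HFD in WT mice, 0 were called in Pparα hep-/- mice by limma and 2 fell in Pparα-/- mice. Cish and Socs2, both induced by growth hormone, fell by 1.70 and 1.76 in WT mice. Of 10 male-biased liver genes outside the families 1 rose and 1 fell in WT mice, whereas 0 rose and 5 fell in Pparα hep-/- and 0 rose and 9 fell in Pparα-/- mice. Hsd3b5, a male-specific steroid dehydrogenase, fell in the deletions, by log2 −3.60 and −3.64, and equal array weights called neither fall. Cyp4a12a fell by 2.87 in Pparα hep-/- mice. Of 6 tested female-biased genes outside the families 1, 3 and 3 rose and 0, 1 and 0 fell in the 3 genotypes. Among the P450 members, 5 tested female-biased genes gave 0 rises and 2 falls in each genotype, against 8.6% to 12.2% of all probes higher and 10.1% to 12.6% lower.

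Genes of the zones of the liver lobule were read last. Of 10 pericentral genes outside the families 3, 2 and 2 rose and 0 fell on the HFD in WT, Pparα hep-/- and Pparα-/- mice, and Aldh1a1 rose by 1.30, 0.30 and 0.50. Of 12 periportal genes 0, 1 and 2 rose and 5, 1 and 7 fell, and Sds, serine dehydratase, fell by 0.94 in WT and 0.95 in Pparα-/- mice. On CTRL 4 and 7 pericentral genes were higher in Pparα hep-/- and Pparα-/- mice than in WT mice and 0 lower, while 0 and 1 periportal genes were higher and 2 and 4 lower, against 11.3% and 15.6% of all probes higher and 13.4% and 18.7% lower. Of 7 listed members that oxidise arachidonate or linoleate (Cyp2c29, Cyp2c38, Cyp2c44, Cyp2j5, Cyp2j6, Cyp2j9 and Cyp2u1) 1, 0 and 0 rose and 1, 4 and 4 fell on the HFD. Of all probes 8.6%, 9.46% and 12.2% were higher and 10.1%, 10.8% and 12.6% lower. The list left out Cyp2c37 and Cyp2c50, also fatty acid epoxygenases and hydroxylases. Their brightest probes were called higher on the HFD in WT mice and were not called in the deletions.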

How the data were processed

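Liver RNA was hybridised to Agilent 1-colour arrays, and the authors deposited Feature Extraction 10.10.1.1 output with raw spot intensity (median and mean), processed intensity, local background intensity, and spot flags, which fall under no standard unit. The authors also deposited log2 values that they had filtered, batch corrected and quantile normalized. These were an alternative here.

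Outlier spots were left out, log2 median intensity was averaged per probe, and probes called well above background by 4 or more of a group's 8 arrays were quantile normalized. limma 3.58.1 (R 4.3.3, version 1.17.8 of data.table) was fitted with group means, a wash batch term and array weights, Benjamini-Hochberg over 33323 probes, at an adjusted p of 0.05. Precision is limited by the number of mice, since an array has no depth in reads. Each array is a separate mouse, per the labels. Array numbers were not used to pair mice. Over 120 same-numbered pairs from different groups the median correlation was 0.02 (−0.45 to 0.69), with 35 over 0.1. For differently numbered pairs the median was −0.002. Members and gene lists were chosen with earlier results of these data known. Named were the 5 largest calls per direction, non-overlapping genes, calls of response differences and the brightest 8. The fit was tested on simulated data.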

Additional observations from a re-analysis of the deposited data

Results flagged for a closer look

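Of 222 groups of 8 mice, for 37 named members with a call, 32 had a highest or lowest mouse far from the rest, measured by its gap to the nearest mouse over the range of the group (above 0.526). Chance gives about 1 in 20 groups. Of the 32, 25 were mice of low array weight.

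Most belonged to Pparα hep-/- CTRL mouse 1. This mouse was lowest for Cyp2c37 at 12.86, Cyp2c50 at 12.63, Cyp2c54 at 12.41, Cyp2c38 at 10.87 and Cyp2g1 at 6.07, and in Cyp2d for Cyp2d9 at 12.79, Cyp2d10 at 16.67, Cyp2d13 at 8.93, Cyp2d22 at 9.54, Cyp2d34 at 8.27, Cyp2d37-ps at 13.39 and Cyp2d40 at 13.62. It was also lowest for Cyp1a2 at 9.71, Cyp2e1 at 17.86 and Cyp2j5 at 13.68, and highest for Cyp1b1 at 7.16 and Cyp3a41a at 17.12. WT CTRL mouse 6 was lowest for Cyp2d37-ps at 13.29, Cyp2j5 at 13.35 and Cyp2e1 at 17.24 and highest for Cyp2c55 at 7.78. WT HFD mouse 6 was lowest for Cyp1a2 at 9.71, Cyp2d34 at 9.85 and Cyp2r1 at 10.70, and Pparα-/- CTRL mouse 3 for Cyp2d9 at 14.92.

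The remaining 7 were single genes. In Pparα hep-/- HFD mice Cyp2j5 was highest in mouse 2 at 14.40, Cyp2c53-ps in mouse 4 at 6.80, and Cyp2d40 was lowest in mouse 5 at 14.99. Cyp2c69 was highest in Pparα-/- HFD mouse 1 at 14.83, Cyp2c68 in Pparα-/- CTRL mouse 4 at 15.08, Cyp2c53-ps in WT HFD mouse 5 at 6.67 and Cyp2j9 in Pparα hep-/- CTRL mouse 3 at 10.32.

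The diet response differed between genotypes in limma for 24 pairs of gene and comparison. The WT response minus the Pparα hep-/- response was 1.95 for Cyp2c38, 1.79 for Cyp2g1, 1.29 for Cyp2c54, 1.13 for Cyp2c37, 1.05 for Cyp2c50, 0.66 for Cyp2c29, 0.48 for Cyp2j13, 0.46 for Cyp2d37-ps, 0.39 for Cyp2j5, 0.37 for Cyp2j8 and −0.70 for Cyp2j9. The WT response minus the Pparα-/- response was 1.13 for Cyp2g1, 1.05 for Cyp2d34, 1.00 for Cyp2d9, 0.70 for Cyp2d37-ps, 0.59 for Cyp2d22, 0.52 for Cyp2j5, 0.50 for Cyp2d12, 0.46 for Cyp2f2, 0.44 for Cyp2j13, 0.44 for Cyp2j8 and −0.78 for Cyp1b1. The Pparα hep-/- response minus the Pparα-/- response was 0.44 for Cyp2f2 and 0.35 for Cyp2a12.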

How the results depend on the processing

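Of the 93 values of named members, the call held for 93 with normexp background correction, 92 with trend and robust settings, 88 with slide as a block, 87 with the authors' log2 values, 75 without the filter and 55 without array weights. Without array weights the called members were 10, 7 and 10 for the diet in WT, Pparα hep-/- and Pparα-/- mice, 11 for Pparα hep-/- against WT on CTRL and 4 on HFD, 14 and 9 for Pparα-/- against WT and Pparα hep-/- on HFD, and 0, 3 and 0 for the 3 differences between responses. Without the filter they were 10 for the diet in WT mice, 3 for the response in WT against Pparα hep-/- mice and 0 for Pparα hep-/- against Pparα-/- mice. The processed signal scaled to its 75th percentile gave 22 for Pparα hep-/- against WT on HFD and 18 for the response in WT against Pparα-/- mice. For the response in WT against Pparα hep-/- mice the slide block gave 5, the authors' log2 values 7 and the fit without the 7 arrays 17. That fit, chosen after seeing the data, gave 7 for Pparα hep-/- against Pparα-/- mice. With the replicate number as a block, which was not used to pair mice in the main fit, that count was 1 and no other count moved by over 1.5 times. The sign changed for 3 values: Cyp2a12 on the diet in Pparα hep-/- mice (−0.004124) and Cyp2d10 in Pparα-/- against WT mice on HFD (−0.07421), both at the 75th percentile, and Cyp2c50 in the latter comparison at its second probe (−0.57). The cause was not tested. Leaving out single mice was not run, with 8 per group. For members near background (Cyp1a1, Cyp2c66) the size of a change is uncertain.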
